A study of Mus musculus with 8 samples.

Results

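Integrins and the proteins of focal adhesions were examined as 1 group of genes in dermal fibroblasts from old and young mice. The group was a list of 37 genes covering integrin chains, other matrix receptors and the adapters, kinases and actin linkers that act beneath them. A gene was measured where the platform annotation assigned at least 1 probe set to that symbol alone, and where a gene had several, the brightest by mean level on the 8 arrays stood for it. This gave 32 measured members among 17097 genes in all, and Itga11, Itgb8, Sdc1, Ptk2 and Actn4 were not analysed here because no such probe set was named for them.

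The samples were 4 old male C57Bl/6 mice (18 months) and 4 young male C57Bl/6 mice (2 months), 1 Affymetrix array per mouse, with no transgene or treatment named in the labels. The cells were sorted from collagenase-digested skin without subdermis as positive for Pdgfra and CD34 and negative for CD45, CD117, CD24, CD31 and EpCam, so fibroblasts low in CD34 are outside the data. RNA came from 5000 cells per mouse and was amplified over 21 cycles. In such bulk samples, fewer cells of a type and less RNA per cell cannot be told apart.

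Integrins are pairs of an alpha and a beta chain that hold a cell to collagen, laminin, fibronectin and other matrix proteins. Talin and kindlin bind the short inner tail of the beta chain and switch the receptor to its active form, and vinculin, paxillin, zyxin, tensins, filamin and alpha-actinin then tie the site to actin filaments. In the dermis these focal adhesions are where fibroblasts sense and pull on the collagen network.

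Levels are log2 expression values, so a difference of 1 is a doubling, and differences are given as old minus young with the standard error (SE) and the adjusted p of a limma fit over all 17097 genes. A gene was called at an adjusted p under 0.05. Array medians lay between 5.06 and 5.14. A gene was termed dim where its mean lay below 5.1, the median of all probe sets, in both ages. The 23 non-specific control probe sets had a median of 3.91 and single values up to 7.2. On the fibroblast marker list, Cd34 averaged 11.01 in old and 10.82 in young mice and Col1a1 averaged 13.08 in old and 13.13 in young mice, whereas Pdgfra, a gene of the sorting gate, was dim, at 4.47 in old and 5.06 in young mice. Of the 8 genes on that list 1 was called, Thy1, which was lower in old mice. Titles carry numbers in 2 runs of consecutive values, each with 2 old and 2 young mice. Across genes above 5.1, deviations from the age mean correlated by 0.072 to 0.241 between an old and a young mouse of the same run and by -0.256 to -0.022 across runs. The deviations of an age cancel out for each gene, so the negative range is no separate observation from the positive one. Each main result is therefore also given within the runs.

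Most integrin and focal adhesion genes were not called as different between old and young fibroblasts. Of the 32 measured members, 2 rose (Tns3 and Zyx) and 1 fell (Fermt2) in old mice. This is 6.25% of members against 1.82% of all genes called higher, and 3.12% of members against 2.15% of all genes called lower. In either direction it is 9.38% against 3.97%. Among genes with both age means at or above 5.1, it is 12% of 25 members against 5.8% of 10348 genes. With counts this small the shares rest on single genes, and the members were chosen with earlier results of these data known. The median difference of the members was -0.01, beside 0.01 over all genes, and the median size of the difference, whatever its sign, was 0.10 for members and 0.08 for all genes. None of the 15 measured integrin genes was called, which for so few genes is near the 3.97% of all genes called. Of these 15, 6 were dim in both ages, against 0 of the 17 other members. At an unadjusted limma p under 0.05 there were 7 of the 32 members and 2 of the 15 integrin genes, against 15.1% of all genes.

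**Figure D1:**
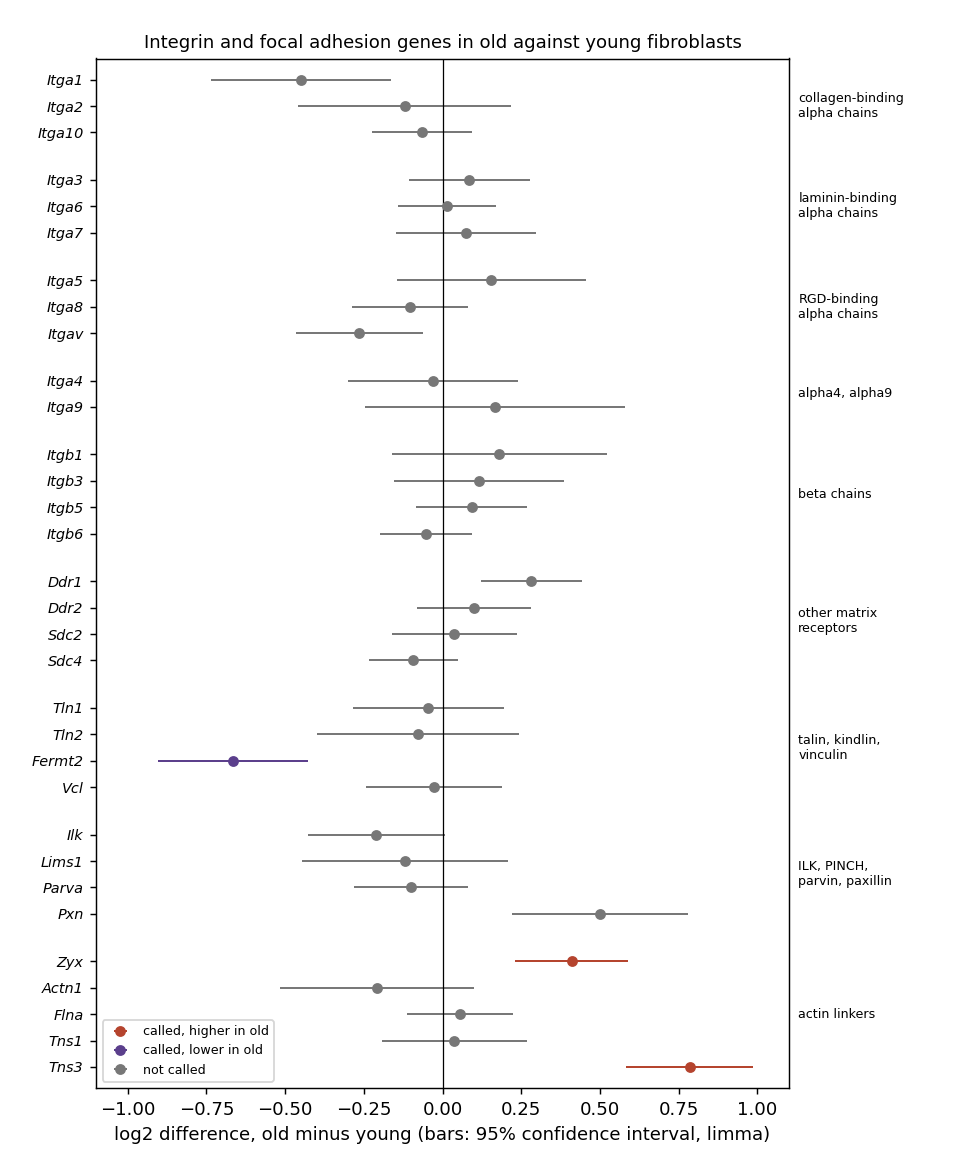
Log2 difference between old and young mice for the 32 measured members, grouped by role down the page; points are limma estimates from 4 old and 4 young mice and bars are 95% confidence intervals. Tns3 at 0.79 and Zyx at 0.41 lie to the right and Fermt2 at -0.66 to the left, while the integrin chains lie between -0.45 and 0.18.

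Fermt2 encodes kindlin-2, the kindlin of fibroblasts, which binds integrin beta tails together with talin. Its level was 8.61, 8.97, 9.05 and 9.01 in old mice, against 9.48, 9.51, 9.58 and 9.73 in young mice. Every old mouse lay below every young mouse. Fermt2 averaged 8.91 ± 0.20 in old and 9.57 ± 0.11 in young mice (SD, n = 4 each), which is 1.59-fold lower in old mice (-0.66 ± 0.11 SE, limma adjusted p = 0.00823).

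Tns3 encodes tensin-3, an adapter that binds integrin beta tails and actin and is found in adhesions of fibroblasts. It stood at 7.55, 7.77, 7.41 and 7.4 in old mice, against 6.78, 6.67, 6.75 and 6.79 in young mice, with no overlap. The means were 7.53 ± 0.17 in old and 6.75 ± 0.05 in young mice (SD, n = 4 each), which is 1.72-fold higher in old mice (0.79 ± 0.09 SE, limma adjusted p = 0.00177). The level in young mice lay within the range of single values of the non-specific controls.

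Zyx encodes zyxin, a LIM-domain protein that gathers at adhesions and stress fibres under tension. Its level was 9.65, 9.66, 9.71 and 9.62 in old mice, against 9.37, 9.2, 9.07 and 9.36 in young mice. The old mice lay close together and all above the young ones, with means of 9.66 ± 0.04 in old and 9.25 ± 0.14 in young mice (SD, n = 4 each). The change was 1.33-fold (0.41 ± 0.08 SE, limma adjusted p = 0.0216). It was not called without young replicate 2 (limma adjusted p = 0.0673), old replicate 2 (0.0654), old replicate 3 (0.0633) or old replicate 4 (0.053), where the difference stayed between 0.39 and 0.42.

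The stretches of DNA just before the annotated starts of these called genes are shown so that their sequence can be read beside the changes. They are the 250 bases upstream of the start, 5′ to 3′ on the gene's strand, from RefSeq on build GRCm38.p6, and lie at chr14:45530066-45530315 (minus strand) for Fermt2, chr11:8664536-8664785 (minus strand) for Tns3 and chr6:42349578-42349827 (plus strand) for Zyx. Capitals mark matches, on either strand, to 6 motifs: the CArG box bound by serum response factor, the MCAT element (CATTCC), the AP-1 site (TGANTCA), the GC box (GGGCGG), the CCAAT box (CCAAT) and the TATA box (TATAAA).
Fermt2: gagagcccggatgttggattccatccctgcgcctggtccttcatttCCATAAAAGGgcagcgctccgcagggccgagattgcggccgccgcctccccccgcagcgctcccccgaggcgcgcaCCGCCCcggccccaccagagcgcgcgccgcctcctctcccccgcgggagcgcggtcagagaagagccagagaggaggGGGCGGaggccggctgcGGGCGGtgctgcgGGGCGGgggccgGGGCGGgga
Tns3: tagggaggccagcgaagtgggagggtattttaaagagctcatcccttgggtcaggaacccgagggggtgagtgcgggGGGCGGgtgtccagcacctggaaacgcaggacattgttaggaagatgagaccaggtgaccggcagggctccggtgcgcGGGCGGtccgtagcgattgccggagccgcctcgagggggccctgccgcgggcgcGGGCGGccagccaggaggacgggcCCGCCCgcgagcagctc
Zyx: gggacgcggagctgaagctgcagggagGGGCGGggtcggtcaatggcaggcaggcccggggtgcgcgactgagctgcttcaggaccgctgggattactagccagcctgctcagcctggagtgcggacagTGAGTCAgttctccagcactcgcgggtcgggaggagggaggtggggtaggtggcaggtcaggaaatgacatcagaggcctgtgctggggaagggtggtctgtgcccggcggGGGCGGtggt
The Fermt2 stretch held 1 CArG box, 204 to 195 bases before the start, and 5 GC boxes; the Tns3 stretch held 4 GC boxes; and the Zyx stretch held 1 AP-1 site, 121 to 115 bases before the start, and 2 GC boxes. No match overlapped another, and the other motifs had no match in these windows. The 25 member genes with a RefSeq promoter had 33 promoters, and 19 of these held a GC box, against 32.7% of all 32851 promoters. The share of G and C was 76.0% in the Fermt2 stretch, 69.6% in Tns3 and 67.6% in Zyx, against a median of 52.4% over all promoters. A CArG box was found in 3 of the 33, of Fermt2, Vcl and Itgb6, and in 1.47% of all promoters. An AP-1 site was found in 2 of the 33, of Zyx and Ddr1, and in 6.75% of all promoters. These matches describe letters in a window and were not tested against the expression values.

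Among the collagen-binding alpha chains, Itga1, Itga2 and Itga10 had differences of -0.45, -0.12 and -0.06, and none was called. Itga1 was 4.81, 4.74, 4.78 and 4.8 in old mice, against 5.2, 4.92, 5.19 and 5.62 in young mice. The groups did not overlap, but the old mean lay below the dim threshold and the difference of -0.45 ± 0.13 (SE) had a limma adjusted p of 0.096. Without young replicate 2 it was called (-0.55, limma adjusted p = 0.0417). Itga10 was dim in both ages.

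The laminin-binding chains differed by 0.09 (Itga3), 0.02 (Itga6) and 0.08 (Itga7), and Itga6 and Itga7 were dim. Of the chains that bind the RGD sequence of fibronectin and vitronectin, Itga5, the partner of Itgb1 in the main fibronectin receptor, had a difference of 0.16 ± 0.13 (SE). Itga8 was dim, with a difference of -0.10. Itgav, the shared alpha chain of the vitronectin receptors that also release TGF-beta from its latent form, was 8.97, 8.96, 8.7 and 8.75 in old mice, against 9.12, 8.95, 9.15 and 9.22 in young mice. Its groups overlapped by 1 young mouse, and the difference of -0.27 ± 0.09 (SE) was not called (limma adjusted p = 0.17). All 5 Itgav probe sets had a negative difference, from -0.28 to -0.08. Itga4, dim in both ages, and Itga9, a receptor for tenascin-C, differed by -0.03 and 0.17.

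The beta chains Itgb1, Itgb3, Itgb5 and Itgb6 differed by 0.18, 0.12, 0.09 and -0.05, all with overlapping groups. Itgb1, the beta chain shared by most matrix integrins, was 10.83, 10.78, 10.53 and 10.62 in old mice, against 10.64, 10.64, 10.74 and 10.02 in young mice, with 1 young mouse well below the rest. Its 95% confidence interval ran from -0.16 to 0.52. Itgb6, a chain known mainly from epithelia, was dim. Over the 15 integrin genes, 12 had an interval that lay within 0.5 of 0 on the log2 scale, the others being Itga1, Itga9 and Itgb1.

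Among the other matrix receptors, the collagen-activated receptor kinase gene Ddr1 stood at 7.84, 7.77, 7.71 and 7.62 in old mice, against 7.5, 7.38, 7.53 and 7.4 in young mice. These groups did not overlap, and the difference of 0.28 ± 0.07 (SE) missed the threshold (limma adjusted p = 0.0659). Its relative Ddr2, the collagen receptor kinase typical of fibroblasts, differed by 0.10 ± 0.08. The syndecan genes Sdc2 and Sdc4, whose heparan sulfate chains bind fibronectin beside integrins, differed by 0.04 ± 0.09 and -0.09 ± 0.06. All 4 receptors had the same sign of difference in both runs.

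**Figure D2:**
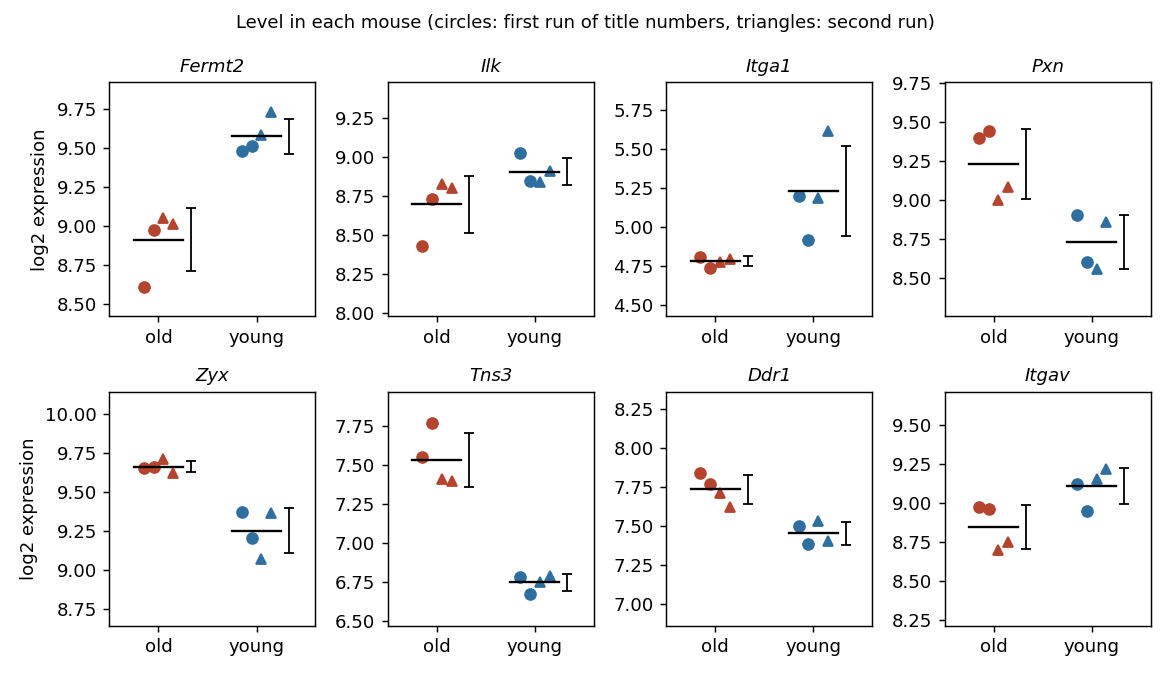
Log2 expression in each of 4 old and 4 young mice for the 7 members whose groups did not overlap and for Itgav; circles are the first and triangles the second run of title numbers, lines are means and brackets are SD. Every panel spans the same 1.5 log2 units, and the gap between ages is widest in Tns3 and Fermt2.

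In the group of talin, kindlin and vinculin, Fermt2 alone of 4 genes was called by its brightest probe set. The talin genes Tln1 and Tln2 differed by -0.04 ± 0.11 and -0.08 ± 0.14 (SE) and vinculin, Vcl, by -0.03 ± 0.10, all with overlapping groups. On the brightest probe sets the intervals of Tln1 and Vcl ran from -0.28 to 0.19 and from -0.24 to 0.19. A second Tln1 probe set differed by -0.60 ± 0.14 and was called where the dimmest probe set above the dim threshold stood for each gene (limma adjusted p = 0.0385).

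The complex of integrin-linked kinase, PINCH and parvin sits beside kindlin at the beta tail. Its kinase gene Ilk was 8.43, 8.73, 8.83 and 8.8 in old mice, against 9.03, 8.85, 8.84 and 8.91 in young mice. The groups did not overlap, though by only 0.01 between the nearest mice, and the difference of -0.21 ± 0.10 (SE) was not called (limma adjusted p = 0.351). Lims1, which encodes PINCH, and Parva, which encodes alpha-parvin, differed by -0.12 ± 0.15 and -0.10 ± 0.08.

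Pxn encodes paxillin, the scaffold on which focal adhesion kinase and its partners gather. It was 9.4, 9.44, 9 and 9.08 in old mice, against 8.9, 8.6, 8.56 and 8.86 in young mice, so the groups did not overlap. The difference of 0.50 ± 0.12 (SE), or 1.41-fold, missed the threshold (limma adjusted p = 0.0606). With the run of title numbers as a block it was called (limma adjusted p = 0.0331).

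Of the actin linkers, Flna, which encodes filamin A, and Tns1, which encodes tensin-1, differed by 0.05 ± 0.08 and 0.04 ± 0.10 (SE), with overlapping groups. Tns1 and Tns3 are relatives with a similar domain layout. Tns1 was 10.03, 10.34, 10.51 and 10.4 in old mice, against 10.31, 10.22, 10.38 and 10.22 in young mice, and its interval of -0.19 to 0.27 did not reach the interval of Tns3, 0.58 to 0.99; the difference between these genes was not tested itself. Actn1, which encodes an alpha-actinin of non-muscle cells, differed by -0.21 ± 0.14 on its brightest probe set.

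In all, the groups of 7 members did not overlap, or 21.9%, against 9.7% of all genes. Among genes with both age means at or above 5.1, the shares were 24% of 25 members and 13.0% of 10348 genes. Of the 7 members, the 4 higher in old mice were Tns3, Pxn, Zyx and Ddr1 (4.49% of all genes were higher without overlap). The 3 lower were Fermt2, Itga1 and Ilk (5.21% of all genes). Among the 32 members, 24 had a 95% confidence interval within 0.5 of 0 and every member had one within 1 of 0 on the log2 scale.

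Probe sets of 1 gene differed in places, among them those of Actn1, Tns3, Tln1 and Zyx. The 32 members had 73 probe sets, and a limma fit over all 28898 probe sets with 1 symbol called 2 of them higher and 3 lower, with 3.29% of all probe sets called in either direction. The 3 Fermt2 probe sets differed by -0.66, -0.68 and -0.73 and none overlapped between ages; those of -0.66 and -0.73 were called (limma adjusted p = 0.0107 and 0.0229) and that of -0.68 was not (0.0581). The Fermt2 probe set of -0.73 lay within the range of single values of the non-specific controls. Both Pxn probe sets were higher without overlap, by 0.50 and 0.39, and neither was called (0.0685 and 0.0536).

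The second probe set of Zyx differed by 0.16 ± 0.07 (SE) and that of Tns3 by 0.14 ± 0.09, and both had overlapping groups and were not called (limma adjusted p = 0.357 and 0.571). The second Tns3 probe set lay near the dim threshold, at 5.23 in old and 5.10 in young mice. The calls of Zyx and Tns3 thus rest on their brightest probe sets.

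For Actn1 a dimmer probe set was called. This second probe set was 5.88, 5.4, 5.77 and 5.48 in old mice, against 6.43, 6.48, 6.75 and 6.94 in young mice, with every old mouse below every young mouse. It fell by 1.02 ± 0.14 (SE, limma adjusted p = 0.00535 over all probe sets), while the brightest, with a mean of 6.35 against 6.14 over the 8 arrays, was not called. Both probe sets lay below 7.2, the highest single value of the non-specific controls, in every mouse. The platform's name for the second probe set marks it as matching more than 1 transcript, and which transcripts it reads was not tested. The second Tln1 probe set had no overlap between ages and was not called in the fit over all probe sets (0.0581), beside -0.04 on the brightest. Of 18 members with several probe sets above the dim threshold, 16 had 1 sign of difference on all of them, and Vcl and Tns1 had both signs.

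**Figure D3:**
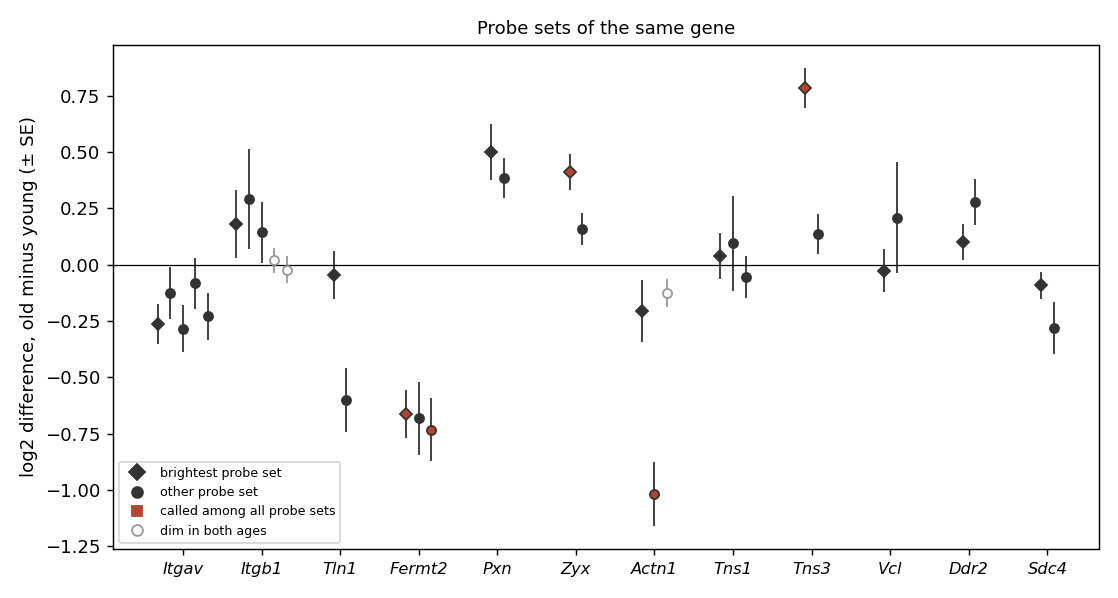
Log2 difference between old and young mice for each probe set of 12 members (diamonds, brightest; circles, others; bars, SE; red, called in the fit over all probe sets; open grey, dim in both ages). The 3 Fermt2 probe sets lie together near -0.7, whereas those of Actn1, Tln1 and Tns3 lie apart.

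Within the 2 runs of title numbers, the called members kept their direction. Fermt2 differed by -0.70 in the first run and -0.62 in the second, Tns3 by 0.94 and 0.63, and Zyx by 0.37 and 0.45 (2 old and 2 young mice in each run). Pxn differed by 0.67 and 0.33 and Ddr1 by 0.36 and 0.20. Of the 32 members, 21 had the same sign in both runs, or 65.6%, against 57.3% of all genes.

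Some members that were not called differed more between the runs than between the ages. Actn1 on its brightest probe set differed by 0.09 and -0.50, Itgav by -0.07 and -0.46, and Lims1 by -0.38 and 0.14. A limma test of whether the age difference varied by run, added after seeing the data, called 0 of the 32 members and 0 of all genes. At an unadjusted p under 0.05 it gave 3 members, or 9.38%, against 7.33% of all genes, and these were Actn1, Itgav and Lims1 (adjusted p = 0.537, 0.581 and 0.654).

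**Figure D4:**
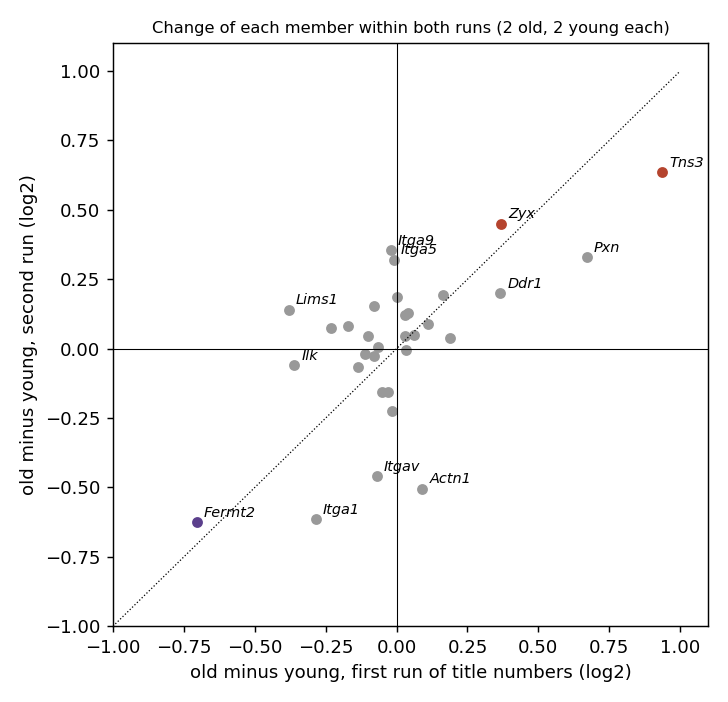
Log2 difference between old and young mice in the second run of title numbers against that in the first for the 32 members; the dotted line marks equal differences, red and purple mark members called higher and lower. Tns3, Zyx and Fermt2 have the same sign on both axes, while Actn1 and Lims1 change sign.

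Genes that work with the members were followed on 6 further lists. These lists were chosen with earlier results of these data known, so their counts and medians describe the lists and test nothing. Of 25 measured integrin ligand genes, 3 were called higher and 6 lower in old mice, with a median difference of -0.18, against 1.82% and 2.15% of all genes called. The basement membrane collagen genes Col4a2 and Col4a1, ligands of the Itga1 and Itga2 receptors, fell by 0.67 ± 0.08 and 0.49 ± 0.07 (SE). Postn, a matricellular ligand of alpha-v integrins, fell by 1.59 ± 0.22. Vtn, which encodes vitronectin, was 5.83, 5.9, 5.96 and 5.86 in old mice, against 6.56, 6.25, 6.4 and 6.5 in young mice, and fell by 0.54 ± 0.08 (limma adjusted p = 0.00515). These 4 were called without each mouse in turn. Vtn lay within the range of single values of the non-specific controls in every mouse.

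The remaining ligand genes called were named after their values were seen: Tnc and Vcam1 fell, and Nid1, Mfge8 and Tgfbi rose. Tnc, which encodes tenascin-C, was 5.7, 5.75, 6.77 and 6.34 in old mice, against 9.35, 7.34, 8.81 and 9.11 in young mice, and fell by 2.51 ± 0.41 (SE, limma adjusted p = 0.00957). It was called without each mouse in turn and differed by -1.36 with the mean of its probe sets (0.00855). The Tnc level in old mice lay within the range of single values of the non-specific controls. Without single mice, Vcam1, Nid1 and Mfge8 lost the call in 6, 7 and 7 of 8 fits and Tgfbi in all 8, with limma adjusted p of 0.0538 to 0.132. Vcam1 kept it without old replicate 3 or young replicate 2, Nid1 without old replicate 3 and Mfge8 without old replicate 1. Mfge8 was also not called with a prior by mean level (0.108), Nid1 with array weights (0.0609) and Tgfbi with dim genes left out (0.0676). The fibronectin gene Fn1, the main ligand of the Itga5 receptor, differed by 0.19 ± 0.08 and was not called (limma adjusted p = 0.27).

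Of 10 further integrin genes and relatives, 1 rose and 1 fell, against 1.82% of all genes called higher and 2.15% called lower. Itgbl1, which encodes a secreted protein with integrin-like repeats, was 11.2, 11.27, 11.17 and 11.24 in old mice, against 10.8, 10.68, 10.9 and 10.32 in young mice, and rose by 0.55 ± 0.12 (SE, limma adjusted p = 0.0314). Itgb4, the partner of Itga6 in hemidesmosomes of keratinocytes, fell by 0.28 ± 0.06 (limma adjusted p = 0.0335). Both calls were lost without single mice: for Itgbl1 without young replicates 1 or 2 or any 1 of the old mice (limma adjusted p = 0.0512 to 0.0945), and for Itgb4 without any 1 mouse other than old replicate 1 (0.0503 to 0.107). Itgb4 was also not called with a prior by mean level (0.157), and its level lay within the range of single values of the non-specific controls.

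Of 34 measured further adapters, 1 rose and 2 fell, against 1.82% of all genes called higher and 2.15% called lower. Csrp1, a LIM protein that binds zyxin and alpha-actinin, was 8.56, 8.97, 8.76 and 8.88 in old mice, against 9.54, 9.39, 9.6 and 9.27 in young mice, and fell by 0.66 ± 0.11 (SE, limma adjusted p = 0.00868). Palld, which encodes palladin, another partner of alpha-actinin, was 7.14, 7.06, 7.9 and 7.7 in old mice, against 8.67, 8.36, 8.46 and 8.53 in young mice. It fell by 1.06 ± 0.18 (limma adjusted p = 0.0113), with -1.42 in the first run and -0.69 in the second. Crk, an adapter that binds paxillin, rose by 0.34 ± 0.07 (limma adjusted p = 0.0296).

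Of 24 measured kinases, GTPases and phosphatases, none rose and 2 fell, against 1.82% of all genes called higher and 2.15% called lower. The small GTPase gene Rhob fell by 0.56 ± 0.11 and Asap1, an Arf GTPase-activating protein of adhesions, by 0.43 ± 0.09 (SE). Of 17 membrane partners, none rose and 2 fell, beside the same shares of all genes. Cav1, the coat protein of caveolae, was 7.95, 8.14, 8.27 and 8.38 in old mice, against 9.14, 9.38, 9.84 and 9.34 in young mice, and fell by 1.24 ± 0.15 (limma adjusted p = 0.00204). Thy1, a surface protein that binds alpha-v beta-3 integrin, fell by 0.61 ± 0.07 (limma adjusted p = 0.00176). Of 23 actin filament partners, none rose and 1 fell, beside the same shares of all genes. This was the tropomyosin gene Tpm1, which fell by 0.96 ± 0.17 (limma adjusted p = 0.0124).

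The calls of Csrp1, Palld, Cav1, Thy1 and Tpm1 were kept without each mouse in turn. That of Crk was lost without any 1 mouse other than old replicate 1 or young replicate 1 (limma adjusted p = 0.0667 to 0.0838). That of Asap1 was lost without any 1 mouse other than old replicate 3 or young replicate 4 (0.0563 to 0.0866), and that of Rhob without old replicate 4 or young replicates 2 or 3 (0.0516 to 0.0596). The choice of probe set moved some sizes: on the dimmest above the dim threshold Crk differed by 0.20 (limma adjusted p = 0.522), Asap1 by -0.79 (0.0116) and Csrp1 by -0.62 (0.08), and with the mean of its probe sets Palld differed by -0.64 (0.0151). With a prior by mean level neither Crk (0.101) nor Asap1 (0.0524) was called.

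**Figure D5:**
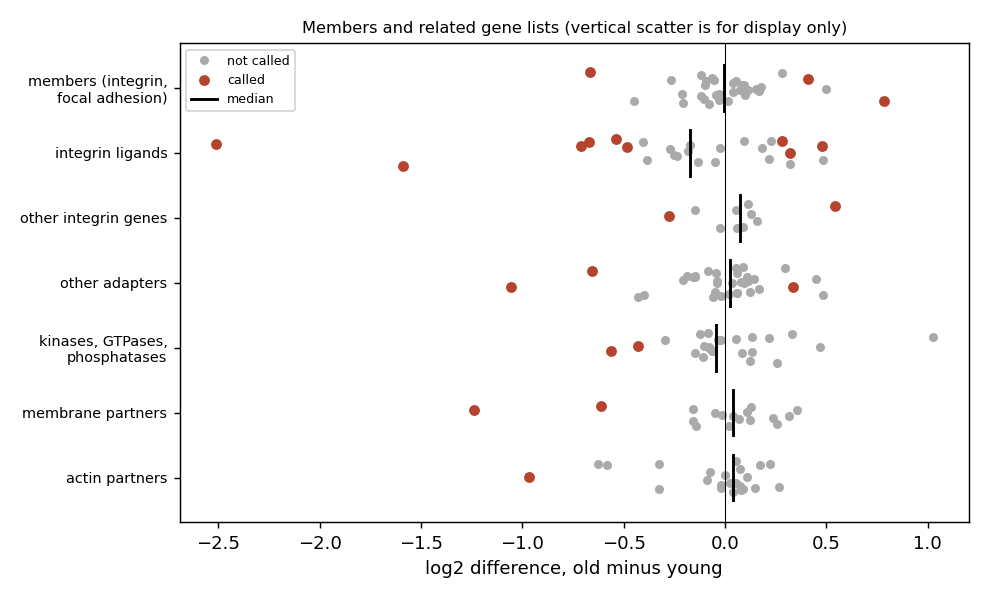
Log2 difference between old and young mice for the 32 members and for 6 lists of related genes; each point is a gene, red points were called by limma and black lines are medians. The members' median lies at -0.01 and that of the integrin ligands at -0.18, with the ligand genes reaching below -2. Members and lists were chosen with earlier results of these data known.

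Markers of other cell types were read on the same arrays. The log2 of the summed linear values was taken for each list. For 7 pericyte and smooth muscle markers it ranged from 8.85 to 9.17 in old and from 8.61 to 8.71 in young mice. Of the 7, 1 was called, Kcnj8 (higher, by 1.16), and the others differed by -0.045 (Rgs5) to 0.0925 (Acta2). Rgs5, Notch3 and Cnn1 were dim in both ages. The 7 melanocyte markers ranged from 9.59 to 10.56 in old and from 8.68 to 9.13 in young mice. Mlana was called (higher, by 2.875), and Dct, Tyr and Tyrp1 were dim. Mitf differed by 0.57 and was not called, and the others differed by -0.085 (Pmel) to 0.12 (Tyr). The 4 Schwann cell markers ranged from 8.31 to 8.58 in old and from 8.66 to 9.13 in young mice. Ncam1 was called (lower, at -0.935), while Mbp, Sox10 and S100b differed by 0.065, -0.005 and -0.01, and S100b was dim.

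The summed levels of the other marker lists overlapped between ages. The 10 keratinocyte markers, which include Itgb4, ranged from 9.5 to 10.74 in old and from 9.39 to 9.97 in young mice, with Itgb4 called (lower) and Krt1, Cdh1 and Lamb3 dim. Epcam, a negative marker of the sorting gate on that list, was 5.23, 5.61, 5.61 and 5.35 in old mice, against 5.13, 5, 4.96 and 5.11 in young mice, without overlap, and was not called (0.40 ± 0.10 SE, limma adjusted p = 0.0584). Of the 8 endothelial markers none was called and 5 were dim, and of the 8 leukocyte markers, which include the leukocyte integrin genes Itgam and Itgb2, none was called and 5 were dim. The part of other cells in the changes of Tns3, Zyx and Fermt2 was not tested.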

How the data were processed

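Expression was measured on Affymetrix arrays, 1 per mouse. The authors deposited log2 expression values per probe set, for which the submitters' processing notes name RMA and affy without versions; RMA corrects background, aligns array distributions and summarises probes. The table held 45141 probe sets for 8 arrays, of which 28898 had 1 gene symbol in the platform annotation, 551 several and 15692 none; only the first were named, and 0 symbols changed when updated through gene identifiers. The number of arrays limits the precision, and no detection calls were used.

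Old and young mice, grouped by the age label, were compared over all 17097 genes with Benjamini-Hochberg adjustment, by the 2-sided moderated test of limma (version 3.58.1, under R version 4.3.3). Every adjusted p comes from limma. The labels do not say which mice shared a collection day. Members and lists were chosen with earlier results of these data known. All members are named; from each related list, up to 4 called genes with the smallest p. Alternatives changed the prior, array weights, block, dim-gene filter, scaling, probe set choice and mice. On simulated arrays of the old against young comparison (17097 genes), 70%, 94%, 100% and 100% of genes changed by 0.5, 1, 2 and 3 (log2) were recovered and 6.67% of calls were false. Simulated noise was drawn independently for each gene and mouse. It lacked the correlation by run seen in the data, so these rates may not hold for them.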

Additional observations from a re-analysis of the deposited data

Results flagged for a closer look

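In 3 of the 64 groups of 4 mice examined (32 members in old and in young mice), 1 mouse lay far from the others by Dixon's criterion, where chance gives about 3.2. Tln1 was 9.86 in old replicate 1, against 10.13 to 10.18 in the other old mice. Itgb1 was 10.02 in young replicate 4, against 10.64 to 10.74 in the other young mice, and Ddr2 was 10.76 in young replicate 4, against 10.97 to 11.01. None of these 3 genes was called, with or without these mice.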

How the results depend on the processing

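Fermt2 was called lower in all 16 alternative settings (limma adjusted p at most 0.0306), and Tns3 higher in 15 of 16. The exception was the dimmest probe set above the dim threshold (0.135, adjusted p = 0.551). With that choice 0 of 25 members were called higher (for Zyx the adjusted p was 0.399) and 3 lower, Fermt2 with Actn1 and Tln1, and the median difference was 0.055; in that setting 5.67% of 10560 genes were called in limma. With the mean of probe sets 2 members were called lower, Fermt2 and Actn1, and 3 higher, among them Pxn and Ddr1 but not Zyx (0.284, adjusted p = 0.0579). With that choice 4.42% of all genes were called. Ddr1 has 1 probe set, so its own values did not change there. Leaving dim genes out gave a median of 0.0375 over 26 members. Pxn was called with array weights, the title run block, dim genes left out and the mean of probe sets (adjusted p = 0.0204 to 0.046). These settings called 4.42% to 6.58% of the genes tested, beside 3.97% in the main fit. Leaving out single mice gave 1 to 2 members higher, 1 to 2 lower and a median of -0.0146 to 0.0362. In these fits 2.5% to 3.54% of all genes were called. Only 1 member was higher without young replicate 2, old replicate 2, old replicate 3 or old replicate 4, and 2 were lower without young replicate 2. The other scalings and priors changed no count of members by over 1.5 times. Among related genes, Crk, Itgb4, Mfge8 and Asap1 were not called with the prior by mean level, Nid1 with array weights, Nid1 and Itgb4 with repeated quantile normalization, Mfge8 and Tgfbi with arrays centred on their median, and Mfge8, Tgfbi and Itgb4 with dim genes left out (adjusted p = 0.0524 to 0.157). Crk was not called with the mean of probe sets (0.244), and Crk, Csrp1, Nid1, Mfge8, Tgfbi and Itgb4 were not called with the dimmest (0.0653 to 0.522). Mfge8 and Itgb4 have 1 probe set each, so their own values did not change with that choice. No paired analysis was possible because no label ties an old mouse to a young one. With the run of title numbers as a block, 3 members were higher and 1 lower, and 5.38% of all genes were called. The cause of these shifts was not tested. No detection calls bound the dim members.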
